A study of Drosophila melanogaster with 16 samples.

Results

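The transcriptome described here is that of control S2 cells, a Drosophila melanogaster line derived from late stage embryos and labelled as macrophage-like. It comprises 2 poly(A)+ RNA-seq libraries out of the 16 samples of the series, chosen as all the RNA-seq libraries of cells treated with double-stranded RNA against lacZ. The series as a whole concerns the nuclear lamina and chromatin folding, and these libraries are its RNA-seq reference. The labels give 5 days of treatment, whereas the methods of the study state a shorter one, so the length is uncertain. The labels call the samples biological replicates, without saying whether the cultures were started separately. They are named control replicate 1 and control replicate 2 below. The lacZ gene is bacterial, and this dsRNA is meant to engage the RNA interference machinery of the cells without a target gene of their own.

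A poly(A)+ library samples the messenger RNAs of a cell in proportion to their number and their length. A small set of genes for protein synthesis, the cytoskeleton and energy metabolism usually supplies much of it, and genes restricted to other cell types contribute few or no reads. Transfer RNAs, which carry amino acids to the ribosome, are not polyadenylated and lie outside what such a library is made to capture.

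The 2 libraries held 16607051 and 14727743 estimated counts in control replicates 1 and 2. Counts were divided by these totals and are given as CPM (counts per 1000000 counts of the library), so that 3 counts, taken as the floor below which a gene cannot be told from 0, correspond to 0.181 CPM in control replicate 1 and 0.204 CPM in control replicate 2. Of the 15149 features listed, 15050 carried a FlyBase gene identifier (FBgn) and held 99.97% of the counts in each library. A further 85 features carried a transcript identifier and held 0.0119% and 0.0124% of the counts in replicates 1 and 2, with 64 of them at 0 in both. The remaining 14 carried an identifier assigned by the transcript assembler, and their counts made up 0.0210% and 0.0202% of the libraries. Genes are named below by identifier, because a symbol was paired with 137 of the 15050. Counts were not divided by transcript length, so the ranking is one of reads and not of RNA molecules.

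Most listed genes gave at least 1 count. There were 10238 such genes (68.0%), and 4812 (32.0%) had 0 counts in both control libraries. Each library alone left nearly the same number at 0, namely 5322 genes in control replicate 1 and 5321 in control replicate 2. Pooled over both libraries, 3 counts correspond to 0.0957 CPM. By counting error alone, a gene with 0 counts could still lie up to this level or higher, since the estimated counts exceed the reads. Just inside the detected class were 94 genes with 1 count over both libraries and 352 with 2 counts. A count above 0 in both libraries was found for 9219 genes, at least 10 counts in both for 7953, and at least 1 CPM in both for 7644 genes.

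The levels fell into a broad upper group and a low tail. In bins of 0.5 on the log2 CPM scale, the bin between 45.3 and 64 CPM held the most genes, 808, and each bin between 1.41 and 5.66 CPM held only 204 to 219. Below that trough the number rose again, to 394 genes in the bin that starts at 0.0884 CPM. The bins on either side of it held 196 and 268 genes. The spacing of single counts shapes this range, so the 394 is not read as a peak of expression. A mean of at least 10 CPM was reached by 6282 genes (41.7% of all identifiers), at least 100 CPM by 2211 genes, and over 1000 CPM by 140 genes. The low tail was also where the estimated counts were least like single reads. The value 1 was given to 121 and 112 genes in replicates 1 and 2, whereas the value 2 was given to 304 and 314 genes and the value 3 to 326 and 347 genes.

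**Figure D1:**
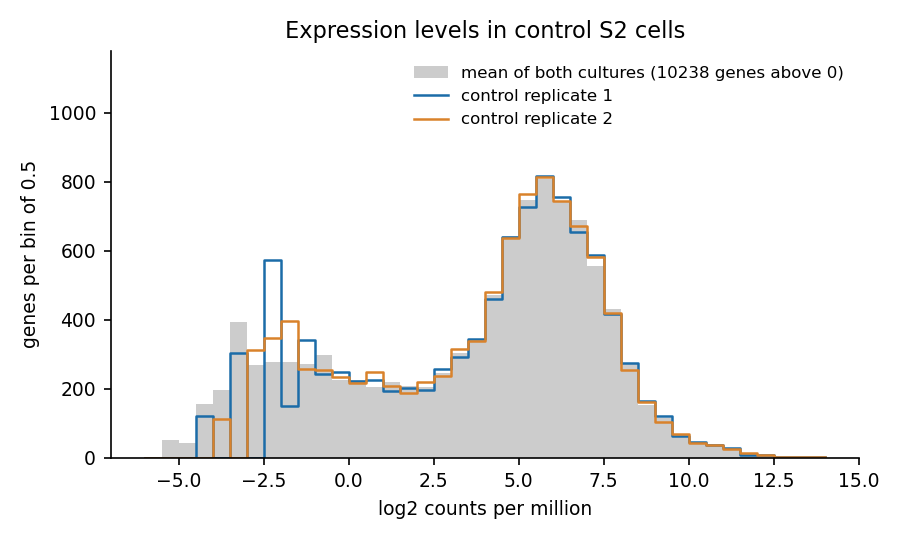
Number of genes (vertical axis) per bin of 0.5 on the log2 CPM scale (horizontal axis) for the mean of both cultures (grey, the 10238 genes above 0) and for each control library (lines). The grey bars peak at 808 genes between 45.3 and 64 CPM, and the jagged left side of the lines is the spacing of single counts.

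The reads were spread over many genes. The most abundant gene of each library held 1.39% of the counts in control replicate 1 and 1.26% in control replicate 2. The 10 most abundant genes of each library held 7.38% and 7.33% (7.35% ± 0.0378, SD, n = 2), and 9 genes belonged to both lists of 10. The 100 most abundant held 26.5% and 27.5% (27.0% ± 0.691), with 97 genes in common, and the 1000 most abundant held 63.8% and 64.3% (64.0% ± 0.345), with 926 in common. The 95% Wilson intervals of these shares extended by at most 0.0253 percentage points to either side, less than the distance between the libraries for the first 10, 100 and 1000 genes, and they cover counting error only. Ranked by mean CPM, 87 genes held 25% of the counts, 475 genes held 50%, 1676 held 75%, 3357 held 90% and 6027 held 99%. The 475 genes were 4.64% of the genes detected. In the separate rankings the 50% mark was passed at 485 genes in control replicate 1 and at 461 in control replicate 2. Control replicate 2 was thus slightly more concentrated in its leading genes from rank 30 to rank 1000, and slightly less so over the first 10.

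**Figure D2:**
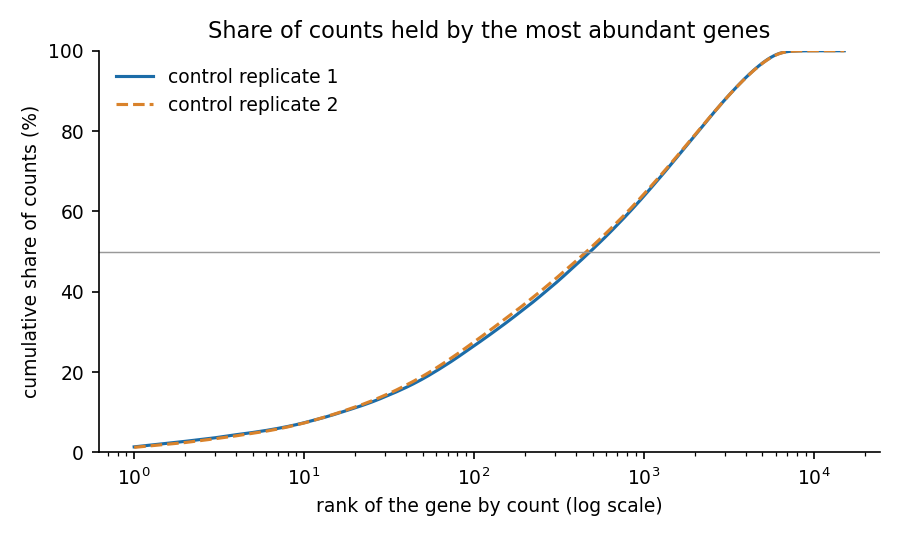
Cumulative share of the counts in percent (vertical axis) against the rank of the gene by count (horizontal axis, log scale) in control replicate 1 (solid) and control replicate 2 (dashed). The grey line marks 50%, crossed at 485 genes in replicate 1 and at 461 genes in replicate 2.

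A pair of genes stood above the rest. FBgn0000556 had 13791 and 12610 CPM in control replicates 1 and 2, and FBgn0001233 had 13864 and 12089 CPM. Their order changed between the cultures, FBgn0001233 being the first gene of control replicate 1 and FBgn0000556 the first of control replicate 2. Together they held 2.77% and 2.47% of the counts in replicates 1 and 2. FBgn0001219 followed with 8886 and 9471 CPM, then FBgn0022893 with 7687 and 7307 CPM and FBgn0033912 with 5489 and 6259 CPM, and these had ranks 3, 4 and 5 in both libraries. FBgn0000559 (4975 and 5302 CPM), FBgn0000042 (5112 and 5145 CPM), FBgn0039713 (4735 and 5225 CPM) and FBgn0002593 (4648 and 5082 CPM) differed little in level. Their means lay between 4865 and 5138 CPM, and FBgn0000559 and FBgn0000042 changed order between the libraries, so these neighbours were not separated beyond the spread of the cultures.

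The tenth gene by mean level was FBgn0003884, the only one of the first 30 paired with a symbol. It matched both alphaTub84B and alphaTub84D, which encode nearly identical alpha-tubulins, the building blocks of microtubules, so no single symbol is given to it here. It had 4534 CPM in control replicate 1 and 4720 CPM in control replicate 2 (4627 ± 131 CPM, SD, n = 2). The next genes, FBgn0029785, FBgn0010412 and FBgn0002622, had means of 4490, 4459 and 4401 CPM. FBgn0034743, FBgn0004413, FBgn0003887, FBgn0000100, FBgn0013325, FBgn0032518, FBgn0011661 and FBgn0024939 came after them, at means of 3918 falling to 3083 CPM. The last 9 of the first 30 were FBgn0031035, FBgn0010078, FBgn0064225, FBgn0035422, FBgn0011284, FBgn0037351, FBgn0026372, FBgn0014026 and FBgn0038834, at means of 2987 falling to 2581 CPM.

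Among the first 30 genes, 7 had the higher CPM in control replicate 1 and 23 in control replicate 2. The log2 ratio of control replicate 1 over control replicate 2 was at most 0.25 in size, reached by FBgn0031035 with 2725 and 3248 CPM. For 28 of the 30 the ranks in the separate libraries differed by no more than 5, and the largest difference was 10 ranks, for FBgn0014026 (2700 and 2488 CPM, ranks 28 and 38). Of the first 30 genes of each library, 28 were shared, and their exact order changed between the cultures.

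Agreement between the cultures depended strongly on the level. Over the 10238 detected genes, which are not independent replicates, Spearman's rho was 0.989 and Pearson's r of log2(CPM + 1) was 0.995. The median size of the log2 ratio was 0.20, with a pseudocount of 0.5 on the counts, 66.5% of genes lay within 1.25-fold of each other and 1370 lay more than 2-fold apart. Over the 6282 genes at 10 CPM or more, the median size was 0.14 (1.10-fold), 86.4% lay within 1.25-fold and 97.4% within 1.5-fold, and 22 genes lay more than 2-fold apart. The ratio spread most in the low tail, where the 937 genes between 0.1 and 0.3 CPM had an SD of the log2 ratio of 2.23. The SD was 1.25 between 0.3 and 1 CPM, 0.72 between 1 and 3 CPM, 0.34 between 10 and 30 CPM, 0.22 between 100 and 300 CPM and 0.19 above 1000 CPM. It did not fall at each step, since the 815 genes between 3 and 10 CPM had an SD of 0.82. Other measures did fall there. The median size of the log2 ratio was 0.37 between 1 and 3 CPM and 0.23 between 3 and 10 CPM. More than 2-fold apart were 8.37% and 2.82% of the genes. Between 3 and 10 CPM, 4 genes had 0 counts in 1 library.

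An approximate SD for Poisson counting alone took the deposited counts as reads, with the same pseudocount. It was smaller than the measured SD at every level but the lowest. For the 602 genes at up to 0.1 CPM the measured SD was 2.13 and the counting SD 2.18. Of these genes, 535 had 0 counts in 1 library, so both values rest mostly on the pseudocount and cannot be compared. Between 10 and 30 CPM the counting SD was 0.12, and above 1000 CPM it was 0.0126, so that the measured SD there was 14.9 times larger. From 10 CPM upwards the cultures thus differed by more than counting alone would give, with an SD of 0.34 in the lowest of these bins and 0.19 in the highest. Expressed as a biological coefficient of variation (BCV, the relative spread between replicates left after counting error), the edgeR estimate common to all genes was 0.116 over 7924 genes. The fitted trend of the BCV with level had a median of 0.153 in the 823 genes up to 3 CPM that passed the filter on low counts. Its median was 0.104 in those above 1000 CPM. With 2 cultures of 1 group, growth of the cultures and preparation of the libraries cannot be told apart as sources of this spread.

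**Figure D3:**
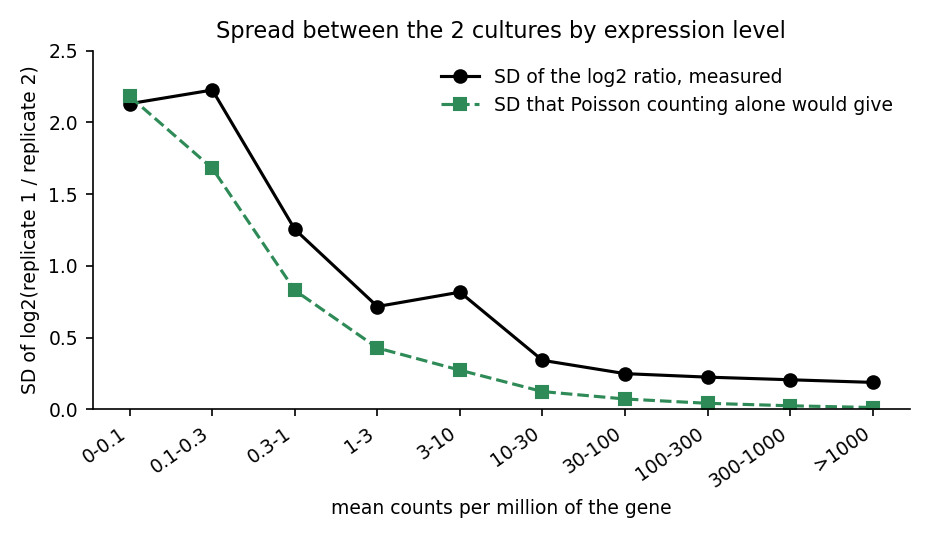
SD of the log2 ratio of control replicate 1 over control replicate 2 (vertical axis) by mean CPM of the gene (horizontal axis, 10 bins), as measured (circles) and as Poisson counting alone would give it (squares). The measured SD is 2.13 in the lowest bin and 0.19 in the highest, where counting would give 0.0126.

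The most abundant genes leaned towards one culture. Of the 140 genes above 1000 CPM, 43 (30.7%) were higher in control replicate 1, and their median log2 ratio was -0.09. In the 1608 genes between 100 and 300 CPM, 52.9% were higher in control replicate 1 and the median was 0.02. With TMM factors in place of the file sums, 48 of the 140 were higher in control replicate 1, and with DESeq2 size factors 52 were, with medians of -0.07 and -0.05. The 140 genes held 31.4% of the counts. The direction above 1000 CPM was the same under each scaling. A scaling factor shifts all log2 ratios by nearly the same amount, so the offset between levels could hardly change with it. The median between 100 and 300 CPM became 0.04 with TMM factors and 0.05 with DESeq2 size factors.

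A few genes differed far more than most genes of their level. FBgn0036403 had 331 counts in control replicate 1 and 4 in control replicate 2, a log2 ratio of 6.03. FBgn0038455 had 1063 and 62 counts (log2 ratio 3.92) and FBgn0039169 had 501 and 74 (2.58). In the other direction, FBgn0085345 had 43 counts in control replicate 1 and 582 in control replicate 2 (-3.92), and FBgn0002909 had 28 and 286 (-3.50). The other 5 of the 10 largest ratios at 10 CPM or more were FBgn0259718, FBgn0033518, FBgn0038760, FBgn0014857 and FBgn0038307, with log2 ratios between 1.32 and 1.49, all higher in control replicate 1. Of the 22 genes more than 2-fold apart, 16 were higher in control replicate 1 and 6 in control replicate 2. All 22 and their ratios are a description of these cultures and were not tested.

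**Figure D4:**
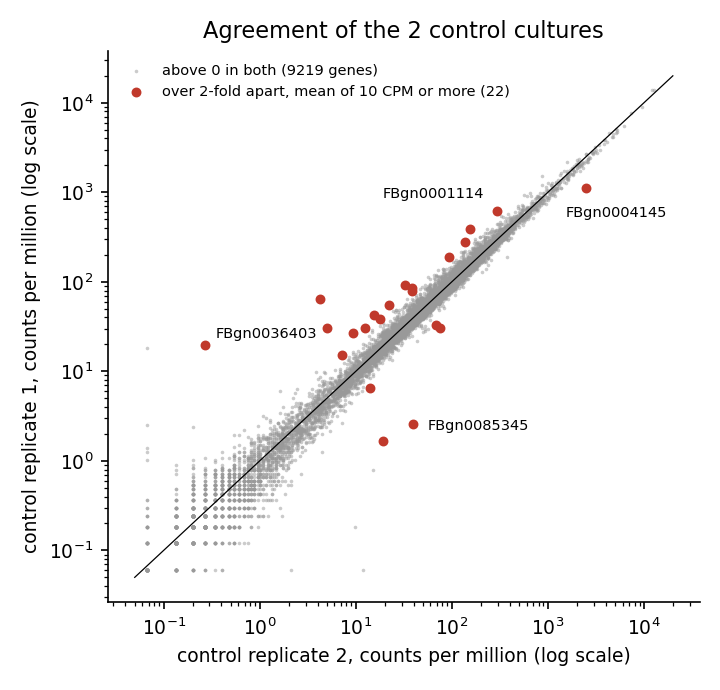
CPM in control replicate 1 (vertical axis, log scale) against CPM in control replicate 2 (horizontal axis, log scale) for the 9219 genes above 0 in both (grey), with the 22 genes at a mean of 10 CPM or more and over 2-fold apart in red. The diagonal marks equal CPM, and FBgn0036403 lies farthest from it among the red points, at 19.9 and 0.272 CPM in replicates 1 and 2.

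Abundant genes were among the 22. FBgn0004145, at rank 66 by mean, had 1128 CPM in control replicate 1 and 2493 CPM in control replicate 2 (18740 and 36719 counts), the only gene above 1000 CPM that differed more than 2-fold. FBgn0014857 had 393 and 155 CPM, and FBgn0001114 had 620 and 294 CPM. At these counts the Poisson counting error is far smaller than the difference. The gene CG42353 was the one member of the 22 paired with a symbol, with 30.9 and 76.2 CPM.

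Genes at 0 in one culture and above 0 in the other numbered 1019, and 833 of them had no more than 4 counts where they were seen. The other end of this class was small. At least 10 counts against 0 were found for 41 genes, 25 of them seen in control replicate 1 and 16 in control replicate 2. FBgn0250851 had 289 counts in control replicate 1 and 0 in control replicate 2, and FBgn0050503 had 133 and 0. The consecutive identifiers FBgn0036794, FBgn0036795 and FBgn0036796, had 0, 128 and 0 counts in control replicate 1, and 145, 0 and 66 counts in control replicate 2. Their sum was 128 and 211 counts, so the sum differed less than any member. Whether these identifiers share reads was not tested.

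Silent genes were unevenly distributed over the FlyBase identifier numbers, without a steady trend. Of the 3597 genes numbered below 30000, 21.7% were silent and 58.7% reached 10 CPM, and they held 53.2% of the counts and 69 of the 100 most abundant genes. Of the 7064 genes numbered 30000 to below 40000, 26.5% were silent and 46.1% reached 10 CPM. Among the 2062 numbered 50000 to below 60000, 54.3% were silent and 372 reached 10 CPM, and none was among the 100 most abundant. The 1252 genes numbered 60000 to below 90000 had 48.1% silent members, yet included 4 of the first 100. Of the 705 numbered 40000 to below 50000, 40.4% were silent and 32.2% reached 10 CPM, and of the 370 numbered 90000 or higher, 41.9% were silent and 30.3% reached 10 CPM, with no gene of either block among the first 100.

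The 137 genes with a symbol give the ranking some named landmarks. They comprised 124 protein-coding genes, 10 transfer RNA genes and 3 long non-coding RNAs, and 51 of them (37.2%) were silent, against 32.0% of all identifiers, while 45 reached 10 CPM. They were set by the pairing and not by level. The genes grouped by role below were taken from these 137 after their values were known, so the counts per role describe these genes only. The labelled macrophage-like character was not checked, since none of the 12 hemocyte markers listed for that purpose was among the 137.

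A laminin gene was the most abundant gene paired with a single symbol. LanA, the alpha chain of laminin in the basement membrane, had 1955 CPM in control replicate 1 and 1865 CPM in control replicate 2, at rank 60 by mean. Meltrin, a membrane-bound metalloprotease of the ADAM type, had 612 and 647 CPM. Swim, a secreted protein that binds the Wnt ligand Wingless, had 526 and 596 CPM, and Idgf3, a secreted chitinase-like growth factor, had 282 and 294 CPM. In none of these 4 did the CPM differ by as much as 1.25-fold. They were picked with their levels known, and other secreted proteins among the 137 had 0 counts in both libraries (Ebp, EbpII, Sfp87B, Spn77Bb, Spn77Bc and Spn75F), so they do not describe secreted proteins as a class.

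The genes of chromatin, transcription and related regulation named here exceeded 10 CPM, a level reached by 41.7% of all identifiers. They were 8 genes picked with their levels known, and the transcription factor gcm2, grouped elsewhere, had 0 counts in both libraries. FBgn0003607, a suppressor of variegation that encodes heterochromatin protein HP1a, led with 884 CPM in control replicate 1 and 948 CPM in control replicate 2. Then came lwr, the SUMO-conjugating enzyme, with 661 and 742 CPM, and Nasp, a histone chaperone, with 313 and 266 CPM. MED1, a Mediator subunit, had 207 and 161 CPM, and pps, which is linked to splicing and transcription, had 153 and 127 CPM. The transcription factor CrebB had 99.1 and 91.8 CPM, CSN3 of the COP9 signalosome had 78.5 and 72.9 CPM, and Mau2, a loader of cohesin, had 59.7 and 55.7 CPM. The splicing genes Prp31 (49.0 and 47.7 CPM) and Pnn (34.1 and 37.1 CPM) were lower still.

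The AMP-activated protein kinase, a sensor of cellular energy, was represented by each of its subunits. The gamma subunit SNF4Agamma had 180 CPM in control replicate 1 and 155 CPM in control replicate 2, the catalytic subunit AMPKalpha had 121 and 125 CPM, and the beta subunit alc had 111 and 111 CPM. Their levels by reads lay close together, though reads were not scaled to the length of the transcripts.

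The metabolic genes named here ranged widely. They were 7 genes picked with their levels known. Other enzyme genes among those with a symbol were lower still, such as Fpgs2 (0 counts in both libraries), Flad2 (0 and 2) and mAcon2 (5 and 0). The 7 therefore do not describe metabolic genes as a class. Aldh, an aldehyde dehydrogenase, had 641 and 791 CPM in control replicates 1 and 2. Ts, thymidylate synthase, which makes a DNA precursor, had 191 and 378 CPM (3165 and 5568 counts), a log2 ratio of -0.99. It was the only gene of the group that differed by close to 2-fold. ScsbetaA of the citric acid cycle had 182 and 216 CPM, Mccc2 of leucine breakdown had 107 and 122 CPM and Treh, trehalase, had 109 and 97.6 CPM. Mal-B2, a maltase, had 7.47 and 10.0 CPM, and Ant2, a mitochondrial ADP/ATP carrier, had 5.84 and 5.98 CPM.

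The named genes of the testis, sperm and seminal fluid lay in the low tail or were silent. Of 19 such genes, picked with their levels known, 12 had 0 counts in both libraries, against 32.0% of all identifiers and 37.2% of those with a symbol. None reached 10 CPM, a level that 41.7% of all identifiers reached. The highest were Porin2, a mitochondrial porin of the male germline, with 36 and 38 counts (2.17 and 2.58 CPM), and bb8, a glutamate dehydrogenase of spermatids, with 28 and 36 counts. The testis-specific beta-tubulin betaTub85D had 3 and 4 counts, against the 75297 and 69514 counts of the alpha-tubulin identifier above. The sperm leucyl aminopeptidases S-Lap1, S-Lap2 and S-Lap3 had 4 and 7, 12 and 0, and 3 and 0 counts, while S-Lap4, S-Lap7 and S-Lap8 had 0 in both libraries. There were also 0 counts in both libraries for Mst98Ca, loopin-1, the seminal proteins Ebp, EbpII and Sfp87B, and the Y-linked genes Pp1-Y2, Ppr-Y, ARY and ORY. For the Y-linked genes, neither the presence of the Y chromosome in these cells nor the loss of reads of low mapping quality was checked.

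Some further named genes were silent or had few counts. mGluR, a glutamate receptor of neurons, had 3 counts in each library, and Mlp60A, a muscle LIM protein, had 4 and 3. The sodium channel gene ppk22 and the transcription factor gcm2, which acts in glia and blood cells, had 0 counts in both, as did the serpins Spn77Bb, Spn77Bc and Spn75F. Of the 10 genes of the transfer RNA that reads asparagine codons, 9 had 0 counts in both libraries and tRNA:Asn-GTT-1-6 had 1 and 0. The non-coding RNA roX1, part of the dosage compensation complex of male flies, had 8 and 9 counts (0.482 and 0.611 CPM). The study describes S2 cells as male. Of the 7 entries listed for the roX RNAs and the MSL complex, only roX1 was paired with an identifier. The level of the complex was therefore not read. The lowest of the 4 matrix and secreted genes named first, Idgf3, had a mean of 288 CPM. The highest of the male reproductive genes named, Porin2, had one of 2.37 CPM. Both groups were picked with their levels known, so this gap does not compare the roles.

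**Figure D5:**
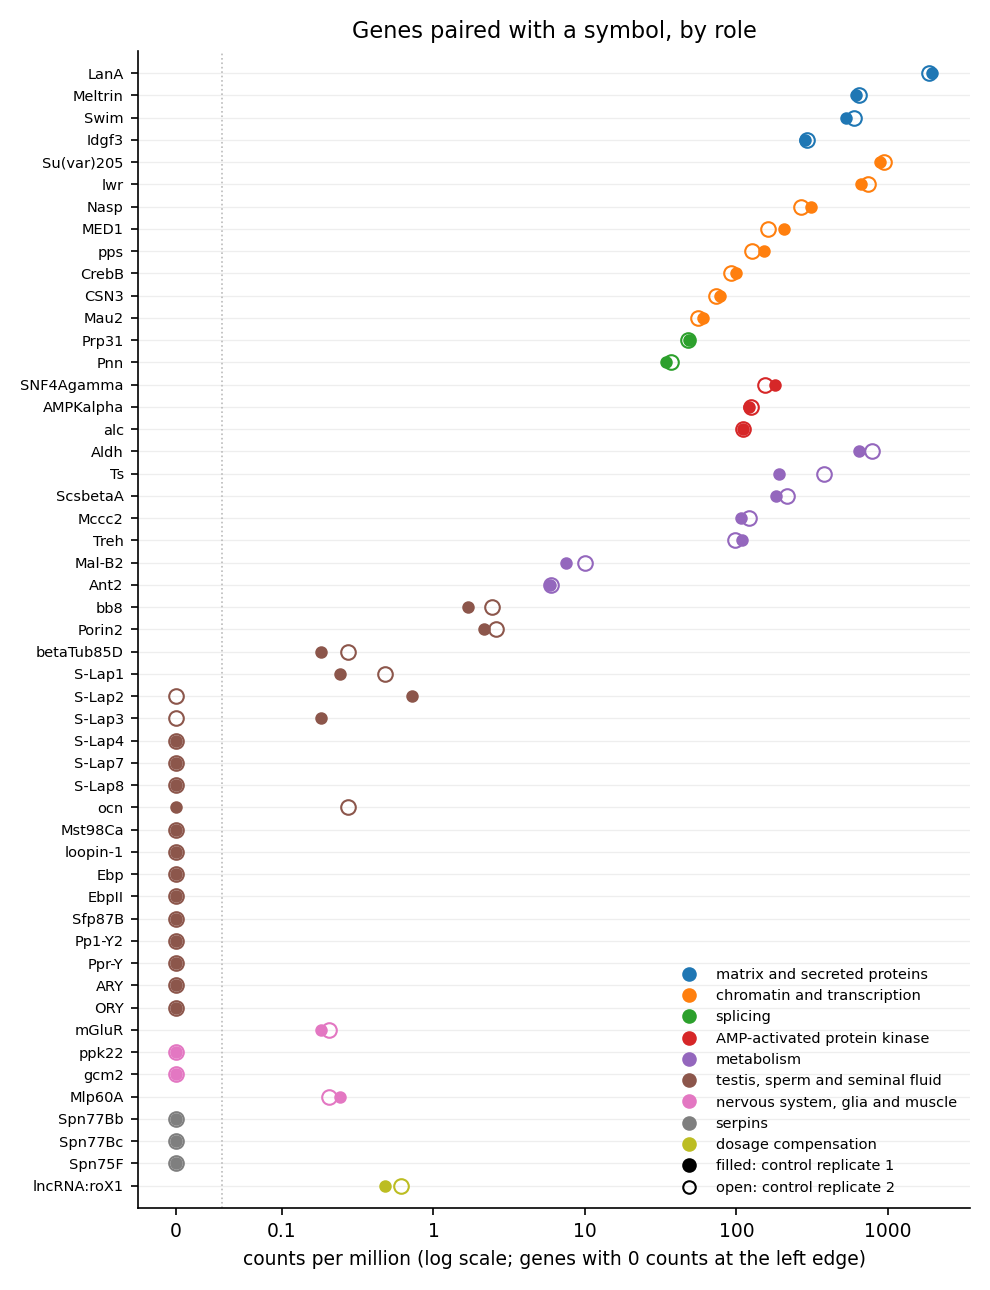
CPM (horizontal axis, log scale, with genes at 0 counts set at the left edge) of the 51 genes with a symbol and an assigned role, in control replicate 1 (filled) and control replicate 2 (open), coloured by role. The matrix, chromatin, splicing and kinase genes lie above 10 CPM in both cultures, and the 19 testis, sperm and seminal fluid genes lie below 10 CPM. Roles were assigned with the levels known, so the gap does not compare the roles.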

How the data were processed

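Poly(A)+ RNA-seq was analysed for the 2 control libraries. Per the submitters' processing notes, reads were mapped to dm3 with HISAT2 2.1.0, and SAMtools and StringTie were used. By the methods of the study, SAMtools removed reads of low mapping quality. Reads that fit several gene copies, such as the alpha-tubulin or transfer RNA genes named above, may have been lost there. Their counts may thus be too low, which was not tested. From the remaining reads the authors deposited an estimated count for each gene as a whole number, unscaled for depth. The library totals exceed the read numbers given in the methods and the value 1 is rarer than 2, so counting intervals and floors are lower bounds. The strand setting is not given in the sources used here, so overlapping genes may share reads. CPM, ranks, shares and log2 ratios were computed with Python 3.11.15 and pandas 2.3.3. BCV came from edgeR 4.0.16 (TMM factors, filterByExpr, intercept only), and DESeq2 1.42.0 was an alternative. The scripts were checked on simulated data. Symbols came from a RefSeq table of Release 6, matched by identifier. Named genes were the 30 highest by mean CPM, members of the listed gene sets, the 10 largest ratios at 10 CPM or more, and genes at the edge of the silent class. Of 40 gene sets, 5 had a paired identifier: tubulins, basement membrane and matrix, roX RNAs and MSL complex, testis markers and transfer RNA genes. Other genes were named after their values were seen. The members and lists were chosen with earlier results of these data known. No test was run, as there was 1 group of 2 cultures. The ChIP-seq, Hi-C and knock-down libraries were not used here.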

Additional observations from a re-analysis of the deposited data

How the results depend on the processing

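Of 38 alternative settings, 1 was labelled as moving a result, by over 1.5 times, the bound used for counts. Shares were judged otherwise, by whether 1 library lay within the SD of the mean of both. With 2 libraries this always holds, so those settings could not have moved a result. Others reread short lists of genes in 1 library alone. The count of 38 therefore overstates how far the results were challenged. The number of genes called silent was 4812 with 0 counts in both libraries as the rule and 7406 with a level below 1 CPM in at least 1 library. Just within that bound were the 7097 genes with fewer than 10 counts in at least 1 library. The DESeq2 median BCV of 0.174, against an edgeR BCV of 0.116, was also just within it. These 2 values are unlike measures. The first is a median of estimates per gene over 10273 unfiltered features, the second a single common estimate over 7924 filtered ones. With either library left out, silent genes numbered 5321 to 5322, the share of the first 10 genes was 7.33% to 7.38%, of the first 100 genes 26.5% to 27.5% and of the first 1000 genes 63.8% to 64.3%, and 29 of the first 30 genes and 98 of the first 100 were kept. TMM and DESeq2 scaling kept all 30 and all 100. The common edgeR BCV was 0.116 without TMM factors and 0.124 without a filter on low counts, over the same 10273 features as the DESeq2 value. The cause of the larger DESeq2 value was not tested. The transcript and locus identifiers, the restriction to 10 CPM and the first 100 genes were alternatives chosen after seeing the data. Rankings per coding length and shares without mitochondrially encoded genes were not run, because lengths and the pairing of those genes were not given in the sources used here. No paired analysis was possible because only 1 group was analysed and no result came from a test. Depth limits what can be said of genes below about 0.0957 CPM over both libraries, and this level is a lower bound.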

Other observations

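Some discordant genes had neighbouring identifiers. FBgn0033518, FBgn0033519 and FBgn0033520 were all more than 2-fold higher in control replicate 1, with 1521, 1323 and 509 counts there and 483, 567 and 182 counts in control replicate 2. Their log2 ratios were 1.48, 1.05 and 1.31. Whether these identifiers lie next to each other on the chromosome, or share reads, was not tested.

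Some named genes that are neighbours in the Release 6 table were both silent, in a set of genes with a symbol of which 37.2% were silent. Pairs that are not neighbours were not compared, so these pairs are a description only. The seminal genes EbpII and Ebp, the Y-linked genes Pp1-Y2 and ORY, and the pair CG33271 and CG33270 had 0 counts in both control libraries. S-Lap1 and S-Lap2 are neighbours too, and S-Lap1 had 4 and 7 counts where S-Lap2 had 12 and 0.

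Of the 140 genes above 1000 CPM, the 43 that were higher in control replicate 1 included some with clearly unequal levels, here given by the largest ratios in that direction. FBgn0036213 had 1523 and 869 CPM in control replicates 1 and 2, FBgn0038661 had 1215 and 868 CPM, and FBgn0029176 had 2188 and 1578 CPM.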
